A study of Rattus norvegicus with 17 samples.

Results

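The genes described here build the protein scaffold under the excitatory postsynaptic membrane and the adhesion bridges that hold the synapse together. They were chosen by function, with receptors left out. The list holds 31 genes, and 29 of them have a row among the 11247 rows of the deposited table, while Lrrtm1 and Iqsec1 were not analysed here. The 29 are 4 Dlg and 4 Dlgap scaffold genes, 6 Shank and Homer genes, 4 genes for subunits of CaMKII, 6 adhesion genes and 5 genes of spine signalling.

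The data are 17 bulk RNA-seq libraries from primary cultures of rat cerebral cortex, which the labels describe as a mix of glutamatergic neurons with astrocytes. The cultures had been infected with an empty vector or with the A53T variant of α-synuclein, a presynaptic protein that forms aggregates in Parkinson's disease. They then received the solvent DMSO, 0.2 µM FK506 or 2.0 µM FK506, of which the series' design text calls the lower dose sub-saturating and the higher one saturating. FK506 is an immunosuppressant that blocks calcineurin, the phosphatase activated by calcium and calmodulin. There are 3 libraries of vector in DMSO, 3 of vector at 0.2 µM, 3 of vector at 2.0 µM, 2 of A53T in DMSO, 3 of A53T at 0.2 µM and 3 of A53T at 2.0 µM. The sources used here give neither the promoter of the transgene nor the age of the cultures, and no label says whether each library was a culture of its own. The p-values below therefore cover variation among these libraries alone, and that may be technical.

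At an excitatory synapse the membrane-associated guanylate kinases (MAGUKs) encoded by the Dlg genes hold receptors and adhesion proteins in place. The SAPAP proteins of the Dlgap genes link them to Shank and Homer, which reach down to the actin cytoskeleton and to metabotropic glutamate receptors. CaMKII, a kinase switched on by calcium, is among the most abundant proteins of this density. Neuroligins and Lrrtm proteins on the postsynaptic side bind presynaptic neurexins across the cleft, and Akap5 holds calcineurin itself at the membrane.

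Values are counts that the authors normalized, and they are written below as normalized counts. Tests were run on log2(value + 1) with limma, adjusted over all 11247 genes with a threshold of 0.05, and differences are log2 fold changes ± SE. Raw depth is unknown, and the normalized values of a library summed to between 15091428 and 18335540. The 3 libraries of A53T at 0.2 µM differed from each other by 0.993 to 1.043 times the sampling noise, against 1.458 to 13.741 times for pairs in the other groups, so they were counted as 1 sample by their mean. A single library lay away from its fellows in each of 3 groups: number 1 in vector at 0.2 µM, number 2 in vector at 2.0 µM and number 1 in A53T at 2.0 µM. These are called the outlying libraries below, and counts without them stand beside the results. For the labelled cell types, rows exist for 18 of 19 pan-neuronal, 13 of 17 glutamatergic and 17 of 19 astrocyte markers. A row does not measure the share of cells of a type. The 17 glutamatergic names include Ctip2, an alias of Bcl11b. Of cell types the labels do not name, rows exist for 13 of 16 GABAergic, 8 of 10 oligodendrocyte lineage, 7 of 9 fibroblast and meningeal, 1 of 11 microglial and 1 of 6 endothelial markers. No marker with a row was at 0 in every library. In such bulk samples, fewer cells of a type and less RNA per cell cannot be told apart.

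Dlgap1, Dlgap3, Homer1 and Camk2b were the 4 members that fell at both FK506 doses in the vector cultures. Of all genes, 10.6% were lower at 0.2 µM and 23.8% at 2.0 µM, and the share lower at both was not computed. At 0.2 µM, 0 of the 4 calls held in all 30 alternative fits. The 250 bases before a transcription start of each are printed here because these genes fell at both doses in vector. In A53T at the lower dose they did not move together, with Dlgap1 higher than in DMSO and Dlgap3 lower. The bases run 5′ to 3′ on the gene's strand, from RefSeq build GRCr8. Capitals mark the GC box GGGCGG and the core TGGAAA bound by NFAT, the transcription factor that calcineurin activates, on either strand.
Dlgap1, chr9:117864208-117864457, plus strand: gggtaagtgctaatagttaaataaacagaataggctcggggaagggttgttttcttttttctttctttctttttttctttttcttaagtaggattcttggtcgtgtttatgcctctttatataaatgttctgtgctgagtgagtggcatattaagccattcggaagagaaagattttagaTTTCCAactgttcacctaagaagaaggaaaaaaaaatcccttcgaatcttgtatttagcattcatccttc
Dlgap3, chr5:144800015-144800264, plus strand: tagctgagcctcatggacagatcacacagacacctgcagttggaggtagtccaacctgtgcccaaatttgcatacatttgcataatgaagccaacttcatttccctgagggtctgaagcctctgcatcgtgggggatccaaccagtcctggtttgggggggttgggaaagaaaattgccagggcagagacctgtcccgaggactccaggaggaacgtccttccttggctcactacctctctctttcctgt
Homer1, chr2:26278762-26279011, plus strand: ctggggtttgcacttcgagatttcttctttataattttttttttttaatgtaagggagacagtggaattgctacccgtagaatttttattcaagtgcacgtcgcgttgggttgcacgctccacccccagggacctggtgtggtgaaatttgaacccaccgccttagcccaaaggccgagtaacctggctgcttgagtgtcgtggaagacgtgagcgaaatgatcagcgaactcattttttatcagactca
Camk2b, chr14:85147945-85148194, minus strand: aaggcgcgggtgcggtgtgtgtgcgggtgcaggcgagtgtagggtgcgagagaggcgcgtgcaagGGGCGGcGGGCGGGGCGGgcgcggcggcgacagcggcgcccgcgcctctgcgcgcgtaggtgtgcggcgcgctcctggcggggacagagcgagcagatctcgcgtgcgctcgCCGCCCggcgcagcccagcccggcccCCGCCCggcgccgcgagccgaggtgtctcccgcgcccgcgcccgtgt

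These windows had little in common in the motifs searched. The Camk2b window was 80.4% G or C and held the GC box on both strands, whereas those of Dlgap3, Homer1 and Dlgap1 were 52.8%, 46.4% and 34.4% G or C and held none. The Dlgap1 window held 1 NFAT core, and the window of its other listed start held no searched motif. RefSeq gave 24 windows for 22 of the 29 members. The NFAT core lay in a window of 4 of these 22 members (Dlgap1, Shank3, Lrrtm2 and Iqsec2), against 19.7% of 33469 windows over all genes. The GC box lay in 7 of the 22, against 30.5% of all windows. The cyclic AMP response element TGACGTCA lay in 1, that of Lrrtm2, against 1.59%, and the MEF2 motif in 0, against 0.523%. A match is only a description of these letters.

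The saturating dose of FK506 lowered a large share of these genes, and none rose with it. In vector cultures 12 of 29 fell at 2.0 µM and 0 rose, where 47.2% of all genes passed, 23.4% higher and 23.8% lower. In A53T cultures 23 of 29 fell and 0 rose, where 37.6% of all genes passed, 19.7% higher and 17.9% lower. That second count rested on the 2 libraries of A53T in DMSO. Fewer members passed without replicate 1, or without the library whose column and title carry different numbers, called unnumbered here. Either fit leaves 1 library in that group, and fewer of all genes passed too. The members' median log2 fold change was then -0.73 and -0.65. With all libraries it was -0.43 in vector and -0.68 in A53T, while the medians over all genes were 0.00 and 0.01. Of the 12 genes lower in vector, 11 were also lower in A53T, which is 91.7% of the vector list and 47.8% of the A53T list. Over all genes the same shares were 44.3% and 58.7%. These shares start from unlike rates, since 23 of 29 members but 17.9% of all genes were lower in A53T. They do not show that the genotypes were more alike for the members. Of the 12, the exception was Homer2, which lost about 1.01 log2 units in vector and did not pass in A53T (-0.26 ± 0.21, adjusted p = 0.351). Libraries at 2.0 µM lay wholly below DMSO for 16 members in vector and 24 in A53T, against 30.3% and 30.6% of all genes, and wholly above for 1 and 0, against 30.2% and 33.8%.

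These directions are relative to all mRNA. When each library was scaled to the pan-neuronal markers instead, the median of all genes rose by 0.56 in vector and 0.46 in A53T at 2.0 µM. This scale is the mean log2 level of 18 markers, so markers with large falls weigh on it. In A53T their median change was -0.20, with 5 of 18 above 0 and the lowest at -2.21. In vector the median was -0.35, with 0 above 0 and the lowest at -1.71. On that scale 8 members were higher and 4 lower in vector, and 2 higher and 13 lower in A53T, where 67.1% and 62.6% of all genes passed. The members' medians were then 0.12 and -0.23, still under those of all genes. The 4 lower in vector on both scales were Dlgap1, Dlgap3, Homer2 and Cnksr2, and these also passed in all 30 alternatives tried. In A53T the members lower in all 30 alternatives were Dlgap3, Shank1, Shank3, Homer3 and Cnksr2. Leaving out the 3 outlying libraries gave 4 higher and 18 lower members in vector and 0 higher and 24 lower in A53T, where 61.2% and 48.3% of all genes passed.

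**Figure D1:**
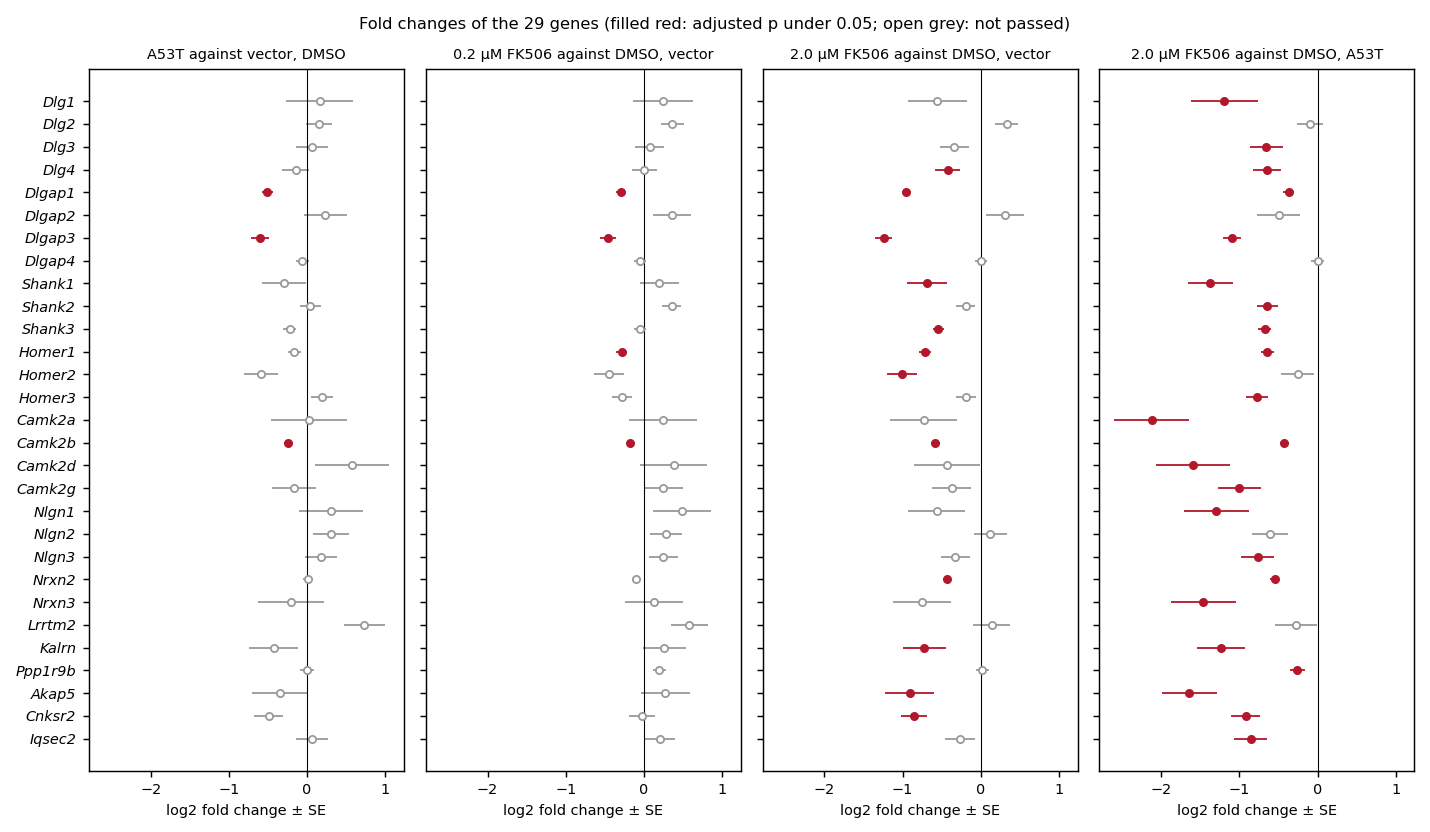
Log2 fold change ± SE of each of the 29 genes (rows, ordered by role) in 4 comparisons (panels), with filled red points for an adjusted p under 0.05 and open grey points for the others. At 2.0 µM FK506 the filled points, 12 in vector and 23 in A53T, all lie left of 0, while 0.2 µM FK506 in vector has 4 and A53T in DMSO 3.

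Markers of several cell types moved at 2.0 µM as well. In vector, where 23.4% of all genes rose and 23.8% fell, 12 of 18 pan-neuronal markers fell and 0 rose, 7 of 13 glutamatergic fell and 1 rose, 10 of 13 GABAergic fell and 0 rose, and 13 of 17 astrocyte markers fell and 2 rose. Of the 8 oligodendrocyte lineage markers 3 fell and 1 rose, of the 7 fibroblast and meningeal markers 3 fell and 1 rose, and the 1 microglial marker rose by 1.92 on the log2 scale. Summed levels in normalized counts, given as the range over libraries in DMSO and then at 2.0 µM, were 132572 to 140118 and 101867 to 110096 for pan-neuronal markers, and 13791 to 14921 and 7846 to 8895 for glutamatergic ones. The GABAergic sums were 38262 to 41649 and 16551 to 18057, and the astrocyte sums 112790 to 115370 and 55191 to 55967. The oligodendrocyte lineage sums were 4178 to 4269 and 2369 to 2454, and the fibroblast and meningeal sums were higher at 2.0 µM, 1999 to 2270 and 6173 to 7577.

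In A53T, where 19.7% of all genes rose and 17.9% fell, 7 of 18 pan-neuronal markers fell and 1 rose, 8 of 13 glutamatergic fell and 1 rose, 8 of 13 GABAergic fell and 0 rose, and 6 of 17 astrocyte markers fell and 4 rose. Of the 8 oligodendrocyte lineage markers 2 fell and 4 rose, of the 7 fibroblast and meningeal markers 3 fell and 0 rose, and the microglial marker rose by 1.20 on the log2 scale. The sums in DMSO and at 2.0 µM were 121335 to 124107 and 111525 to 134763 for pan-neuronal markers, and 11924 to 12393 and 5567 to 7343 for glutamatergic ones. They were 22566 to 22850 and 15543 to 17245 for GABAergic markers and 98980 to 103386 and 63959 to 66993 for astrocyte markers. The oligodendrocyte lineage sums were higher at 2.0 µM, 3697 to 3727 and 5011 to 5086, and the fibroblast and meningeal sums were 2591 to 2681 and 1339 to 1721. The part of these shifts in the members' changes was not tested.

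The lower dose gave few calls among the members in vector with all libraries in the fit. At 0.2 µM 4 of 29 fell and 0 rose, where 18.3% of all genes passed, 7.7% higher and 10.6% lower. This count is near that background and is not a result about the members as a group. Leaving out replicate 1 or 2 of vector in DMSO left 2 of the 4 calls, where 12.4% and 9.28% of all genes passed. Leaving out replicate 1 of A53T at 2.0 µM gave 3 higher and 4 lower, where 26.8% passed. The libraries at 0.2 µM lay wholly below DMSO for 8 members and wholly above for 2, against 21% and 17.7% of all genes. Between the doses, 14 members were lower at 2.0 µM than at 0.2 µM and 0 higher, where 33.7% of all genes passed, 18% higher and 15.7% lower. This count was 8 without replicate 2 of vector at 0.2 µM or at 2.0 µM, where 23.7% and 24.8% of all genes passed. It was 24 without replicate 1 of A53T at 2.0 µM, where 41.8% passed. Libraries did not overlap for 16 members, all lower at 2.0 µM, against 21.8% of all genes lower and 23.5% higher. A fall in the mean at each dose step was seen in 8 of 29 members (27.6%), close to the 25.3% of all genes. Those 8 were Dlgap1, Dlgap3, Shank3, Homer1, Homer2, Camk2b, Nrxn2 and Cnksr2. Without the 3 outlying libraries, 19 members were higher and 4 lower at 0.2 µM than in DMSO, while the share of all genes passing rose from 18.3% to 52.4%. With scaling to the pan-neuronal markers 6 were higher and 0 lower, where 20.3% of all genes passed.

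In DMSO, 3 of 29 members were lower in A53T than in vector, Dlgap1, Dlgap3 and Camk2b, and 0 were higher, where 14% of all genes passed, 5.85% higher and 8.19% lower. The members' count is near that background and is not a result about them as a group. Libraries did not overlap for 10 members that were lower and 7 that were higher, against 30.3% and 30.1% of all genes. Dlgap1 passed in all 30 alternatives. The call of Dlgap3 was lost without replicate 1 of A53T in DMSO (adjusted p = 0.0616) and with scaling to the pan-neuronal markers (adjusted p = 0.0922), and that of Camk2b in 8 alternatives. The count fell without replicate 1 of A53T in DMSO, which leaves 1 library there, as did the share of all genes passing. It was 1 higher and 5 lower without replicate 1 of A53T at 2.0 µM, where 20.3% of all genes passed. Without the 3 outlying libraries it was 4 higher and 9 lower, where 39% of all genes passed. At 2.0 µM FK506, 11 members were lower in A53T than in vector and 0 higher, where 19.6% of all genes passed, 9.88% higher and 9.7% lower. Libraries of A53T lay wholly below vector for 12 members and wholly above for 0, against 16% and 17% of all genes. The count of 11 rested on single libraries. It was 2 without replicate 1 or 3 of vector at 2.0 µM, where 10.6% and 11.8% of all genes passed. Without replicate 1 of A53T at 2.0 µM, 1 was higher and 2 lower, where 16.9% passed. Without replicate 2 of that group the count was 5, where 13.2% passed. It was 7 without replicate 2 or 3 of vector in DMSO or either library of A53T in DMSO, where 16.5% to 17.1% passed. Fitting these 2 groups alone left 2 calls, where 6.12% of all genes passed, and of the 11 only Shank3 passed in all 30 alternatives.

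Dlgap1 and Dlgap3 encode SAPAP scaffolds, which bind the guanylate kinase domain of the MAGUKs on one side and Shank on the other. Dlgap1 stood at 3732, 4012 and 3740.1 normalized counts in vector with DMSO, 3032, 3350.3 and 3011 at 0.2 µM and 1989, 1980.4 and 1965 at 2.0 µM. The A53T libraries gave 2654 and 2735 in DMSO, 2087, 2239 and 1931 at 2.0 µM and 4191, 4158 and 4132 at 0.2 µM. The 3 vector groups did not overlap and stepped down with dose, A53T in DMSO lay below all vector libraries without the higher dose, and both genotypes ended near the same level at 2.0 µM. The fall in vector was -0.29 ± 0.06, adjusted p = 0.00808 at 0.2 µM and -0.95 ± 0.06, adjusted p = 2.04e-07 at 2.0 µM. A53T lowered it in DMSO (-0.51 ± 0.07, adjusted p = 0.000642), and 2.0 µM lowered it further in A53T (-0.37 ± 0.07, adjusted p = 0.00171), a fall that became 0.08 with scaling to the pan-neuronal markers.

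Dlgap1 was the 1 member whose response to 2.0 µM FK506 differed between the genotypes, where 14.6% of all genes passed this interaction, 8.14% higher and 6.45% lower in A53T. Its change in A53T exceeded that in vector by 0.58 ± 0.09, adjusted p = 0.00222, so the fall was smaller in A53T. The interaction passed in 29 of 30 alternatives and gave an adjusted p of 0.0574 with scaling to the pan-neuronal markers. For the other 28 members no difference was detected at this spread, with estimates from -1.39 for Camk2a to 0.76 for Homer2, which does not show that they respond alike. Of the 29 estimates, 24 were below 0 and 5 above, with a median of -0.45 against 0 over all genes. Most thus lay on the other side of 0 from Dlgap1. With scaling to the pan-neuronal markers 0 members were higher and 5 lower, where 11.8% of all genes passed. Homer3 came next by adjusted p (-0.59 ± 0.19, adjusted p = 0.0528). The count of members moved with single libraries, to 6 without replicate 3 and 2 without replicate 1 of A53T at 2.0 µM. The shares of all genes in those fits are not given here, so these counts are not a result about the members. Without the 3 outlying libraries 2 members were higher and 15 lower, where 37.8% of all genes passed.

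Dlgap3 gave 4248, 4587 and 4344 in vector with DMSO, 3113, 3297 and 3158 at 0.2 µM and 1832, 2116 and 1640.4 at 2.0 µM. The A53T libraries held 2843 and 2935 in DMSO, 1441, 1502 and 1496 at 0.2 µM and 1460.4, 1477 and 1129.8 at 2.0 µM. Every condition lay below vector in DMSO without overlap, and the A53T libraries at the lower dose were already as low as those at the higher one. It fell by 1.24 on the log2 scale at 2.0 µM in vector (SE 0.10, adjusted p = 1.16e-06) and by 1.10 in A53T (SE 0.12, adjusted p = 4.07e-05). The smaller dose gave -0.46 ± 0.10, adjusted p = 0.0102 in vector, and A53T gave -0.60 ± 0.12, adjusted p = 0.00483 in DMSO and -0.46 ± 0.10, adjusted p = 0.00931 at 2.0 µM. The other SAPAP genes did not pass at 2.0 µM: Dlgap2 was 0.31 ± 0.25 in vector and -0.50 ± 0.28 in A53T, and Dlgap4 was 0.00 ± 0.08 and 0.00 ± 0.09.

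Homer1 encodes an adaptor of metabotropic glutamate receptors and Shank, and neuronal activity induces a short form of it that a count per gene cannot tell from the long ones. It gave 948, 959 and 916 in vector with DMSO, 721, 798 and 799 at 0.2 µM and 534, 605 and 584 at 2.0 µM. In A53T the values were 821 and 858 in DMSO, 496, 584 and 534 at 2.0 µM and 1437, 1457 and 1431 at 0.2 µM. The vector groups stepped down without overlap, the 2.0 µM libraries of both genotypes shared one range, and A53T at 0.2 µM was above all others. The changes were -0.28 ± 0.07, adjusted p = 0.0216 at 0.2 µM and -0.71 ± 0.07, adjusted p = 7.97e-06 at 2.0 µM in vector, and -0.64 ± 0.08, adjusted p = 0.000173 at 2.0 µM in A53T. The call at 0.2 µM was lost without replicate 1 or 2 of vector in DMSO, and all 3 calls were lost with scaling to the pan-neuronal markers.

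Homer2, a paralog, gave 73.9, 70.3 and 62.6 in vector with DMSO and 33.1, 30.6 and 37.5 at 2.0 µM, without overlap. It fell there by 1.01 on the log2 scale (SE 0.19, adjusted p = 0.000825). Homer3 fell at 2.0 µM in A53T (-0.78 ± 0.14, adjusted p = 0.00133), while its value in vector was -0.19 ± 0.12 without passing.

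The Shank genes encode the large proteins that tie SAPAP and Homer to actin. Shank3 gave 1524, 1560.5 and 1413 in vector with DMSO, 1299, 1560.4 and 1485 at 0.2 µM and 1064, 998 and 1025 at 2.0 µM. It gave 1259 and 1307 in A53T with DMSO, 1865, 2043 and 2012 at 0.2 µM and 753, 800.4 and 857 at 2.0 µM. Only the higher dose separated from DMSO in vector, and the A53T libraries at 2.0 µM lay below every other library. The fall at 2.0 µM was -0.54 ± 0.07, adjusted p = 7.19e-05 in vector, where scaling to the pan-neuronal markers turned it to 0.01, and -0.68 ± 0.08, adjusted p = 0.00012 in A53T. At 2.0 µM, A53T was below vector by 0.36 log2 units (-0.36 ± 0.07, adjusted p = 0.00613).

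Shank1 gave 1797, 1551 and 1498 in vector with DMSO, 1211, 2328 and 2245 at 0.2 µM and 1120.5, 758 and 1183 at 2.0 µM. With A53T there were 1173 and 1477 in DMSO, 4858, 5082 and 5039 at 0.2 µM and 378, 571 and 608 at 2.0 µM. The libraries at 2.0 µM were below DMSO in each genotype, and replicate 1 of vector at 0.2 µM lay far under its 2 fellows. The change at 2.0 µM was -0.69 ± 0.25, adjusted p = 0.0413 in vector and -1.37 ± 0.28, adjusted p = 0.00317 in A53T. The vector call was lost in 8 alternatives, among them leaving out any library of vector in DMSO, while the A53T call held in all 30. Shank2 fell at 2.0 µM in A53T (-0.64 ± 0.14, adjusted p = 0.00351) and was -0.19 ± 0.12 in vector without passing, where pan-neuronal scaling made it higher by 0.36.

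**Figure D2:**
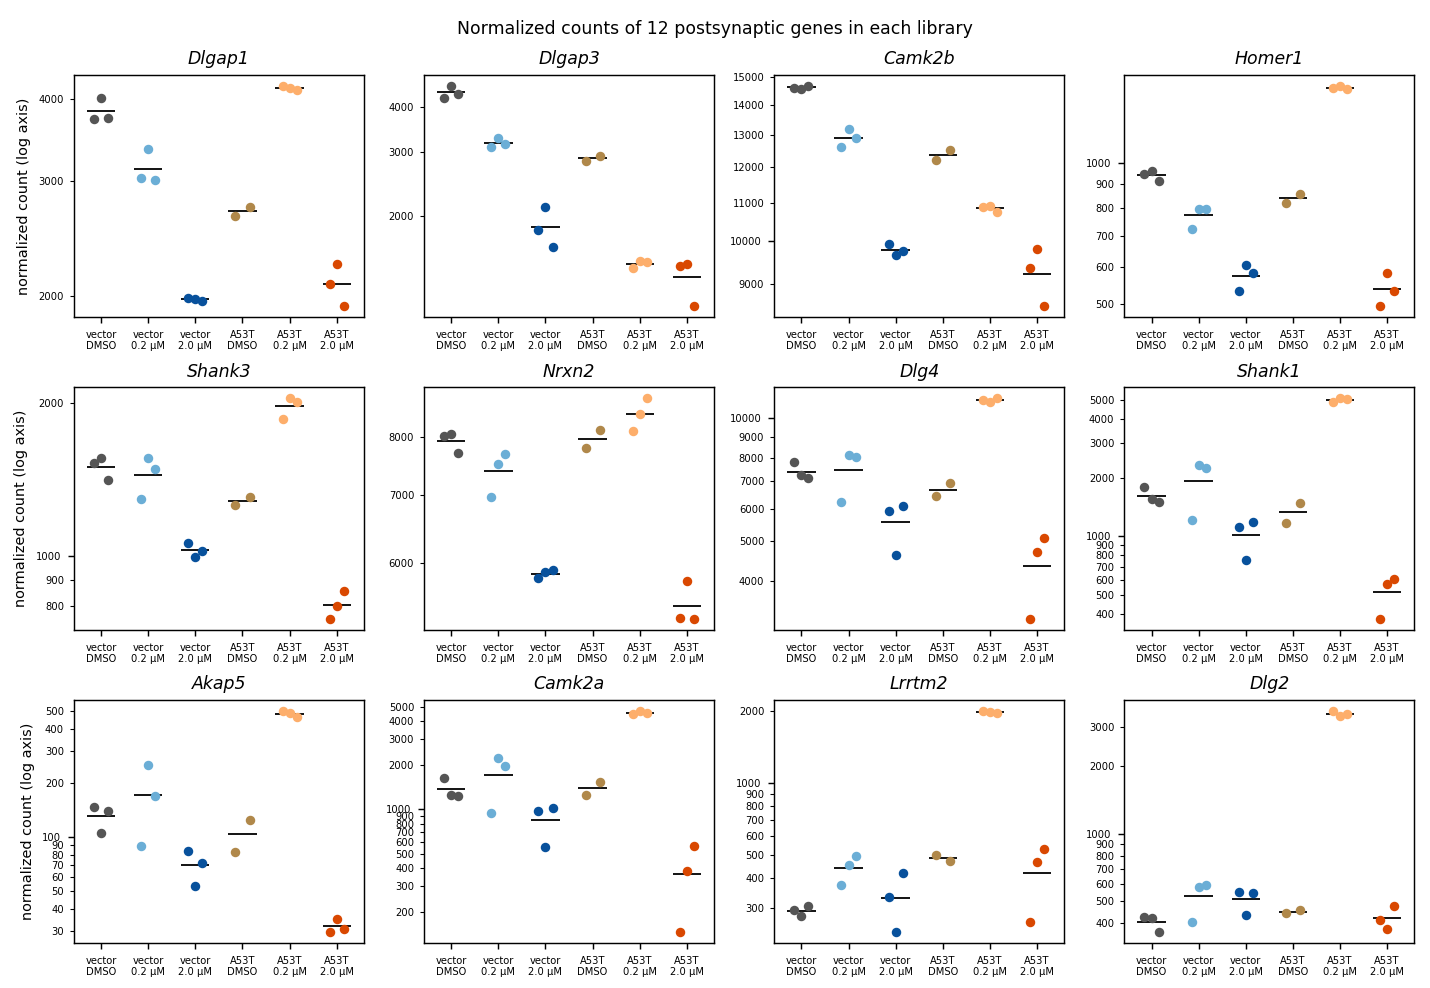
Normalized counts (log axis, a separate scale per panel) of 12 genes in each of the 17 libraries, by group, with a horizontal bar at each group's mean. Dlgap1, Dlgap3, Camk2b, Homer1 and Nrxn2 have libraries close together within groups, whereas Camk2a, Akap5 and Shank1 spread widely, and A53T at 0.2 µM stands far above all other groups for Camk2a, Akap5, Lrrtm2, Shank1 and Dlg2.

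Among the MAGUKs, Dlg4, which encodes the major scaffold of the postsynaptic density, gave 7799.8, 7247 and 7134 in vector with DMSO, 6228, 8101 and 8032 at 0.2 µM and 5939, 4624 and 6109 at 2.0 µM. A53T libraries read 6440.4 and 6926 in DMSO, 11094, 10960.5 and 11172 at 0.2 µM and 3224, 4689 and 5089.8 at 2.0 µM. The 2.0 µM libraries lay below DMSO in both genotypes, with replicate 1 of A53T lowest of all. The fall was -0.42 ± 0.16, adjusted p = 0.045 in vector and -0.65 ± 0.18, adjusted p = 0.0141 in A53T. The vector call was lost in 12 alternatives and turned to 0.13 with scaling to the pan-neuronal markers, and the A53T call was lost without either library of A53T in DMSO.

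Dlg1 and Dlg3 fell at 2.0 µM in A53T (-1.20 ± 0.43, adjusted p = 0.0439, and -0.65 ± 0.20, adjusted p = 0.0257) and did not pass in vector (-0.56 ± 0.38 and -0.34 ± 0.18). Dlg2 went the other way in vector without passing (0.33 ± 0.15, adjusted p = 0.0814), and was 0.35 higher in A53T at 2.0 µM with pan-neuronal scaling. Its values, chosen for printing after they were seen, were 425, 420.0 and 365 in vector with DMSO, 549, 433 and 546 at 2.0 µM, 442 and 455 in A53T with DMSO and 412, 377 and 474 at 2.0 µM. The vector libraries did not overlap, with 2.0 µM above DMSO, and the A53T ones did.

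The 2 main neuronal subunits of CaMKII were measured with very different spread. Camk2b, whose product also binds actin, gave 14595, 14564 and 14675 in vector with DMSO, 12606, 13186 and 12895 at 0.2 µM and 9927, 9657 and 9760.1 at 2.0 µM. The A53T groups had 12221 and 12524 in DMSO, 10884, 10898 and 10743 at 0.2 µM and 9357, 9821 and 8522 at 2.0 µM. Vector in DMSO lay above every other library, the vector groups stepped down without overlap, and replicates stayed close. The changes were -0.24 ± 0.06, adjusted p = 0.0185 for A53T in DMSO, -0.18 ± 0.05, adjusted p = 0.0352 at 0.2 µM in vector, -0.58 ± 0.05, adjusted p = 2.62e-06 at 2.0 µM in vector and -0.42 ± 0.06, adjusted p = 0.000266 at 2.0 µM in A53T. With scaling to the pan-neuronal markers the last of these became 0.03 and the change at 2.0 µM in vector -0.02. The call at 0.2 µM was lost in 12 alternatives and turned to 0.02 with quantile normalization.

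Camk2a, whose values are printed because its spread was the widest of the members, gave 1635, 1255 and 1237 in vector with DMSO, 953, 2223 and 1988 at 0.2 µM and 974, 554 and 1024 at 2.0 µM. Under A53T the gene had 1257 and 1526 in DMSO, 4472, 4653 and 4556 at 0.2 µM and 147, 383 and 563 at 2.0 µM. Replicate 1 of A53T at 2.0 µM was the lowest of all, replicate 2 was the lowest in vector at 2.0 µM and replicate 1 the lowest at 0.2 µM. The fall at 2.0 µM was -2.12 ± 0.48, adjusted p = 0.00544 in A53T, lost without the unnumbered DMSO library (adjusted p = 0.0546), and -0.73 ± 0.43 in vector without passing. Camk2d and Camk2g, the subunits found in many tissues, fell in A53T (-1.59 ± 0.47, adjusted p = 0.0208, and -1.004 ± 0.28, adjusted p = 0.0145) and did not pass in vector (-0.43 ± 0.42 and -0.37 ± 0.25). Both A53T calls were lost without either library of A53T in DMSO.

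Among the adhesion genes both neurexins fell at 2.0 µM in A53T, with unequal precision, and Nrxn2 also in vector. Nrxn2, a presynaptic partner of neuroligins, gave 8019, 8047 and 7703 in vector with DMSO, 6973, 7518 and 7687 at 0.2 µM and 5808, 5879 and 5906 at 2.0 µM. A53T cultures showed 7801 and 8121 in DMSO, 8097, 8414 and 8724 at 0.2 µM and 5298, 5759.8 and 5289.9 at 2.0 µM. The libraries at 2.0 µM lay below all others in both genotypes, and A53T in DMSO overlapped with vector in DMSO. The fall was -0.43 ± 0.05, adjusted p = 2.40e-05 in vector, which scaling to the pan-neuronal markers turned to 0.12, and -0.55 ± 0.06, adjusted p = 4.43e-05 in A53T. Nrxn3 fell in A53T (-1.46 ± 0.42, adjusted p = 0.017) and was -0.75 ± 0.37 in vector without passing.

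Of the neuroligins, Nlgn1, of excitatory synapses, and Nlgn3 fell at 2.0 µM in A53T (-1.29 ± 0.41, adjusted p = 0.0271, and -0.77 ± 0.21, adjusted p = 0.0133). Nlgn2, of inhibitory synapses, did not pass there (-0.61 ± 0.23, adjusted p = 0.0524) although its libraries did not overlap. None of these 3 passed in vector against DMSO, with -0.56 ± 0.37 for Nlgn1, 0.12 ± 0.21 for Nlgn2 and -0.32 ± 0.19 for Nlgn3. The calls of Nlgn1, Nlgn3 and Nrxn3 in A53T were lost without either library of A53T in DMSO, and that of Nlgn1 also without replicate 1 of A53T at 2.0 µM.

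Lrrtm2, which binds neurexins from the postsynaptic side, gave 294, 276 and 304 in vector with DMSO, 372, 454 and 492 at 0.2 µM and 333, 238 and 418 at 2.0 µM. In A53T its counts were 500.4 and 470.1 in DMSO, 1988, 1971 and 1964 at 0.2 µM and 263, 464 and 527 at 2.0 µM. Its libraries of A53T in DMSO and of vector at 0.2 µM lay above vector in DMSO without overlap. Neither difference passed (0.73 ± 0.27, adjusted p = 0.0869 for A53T in DMSO, and 0.58 ± 0.24, adjusted p = 0.105 for 0.2 µM), and the first passed in 7 of 30 alternatives.

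Of the 5 genes of spine signalling, 5 fell at 2.0 µM in A53T, where 17.9% of all genes fell, and 3 in vector, where 23.8% did. Of the 5 in A53T, Ppp1r9b was at the threshold. Akap5, which anchors calcineurin beside protein kinase A, gave 147, 105 and 140.3 in vector with DMSO, 89.3, 253 and 169 at 0.2 µM and 83.8, 53.2 and 71.9 at 2.0 µM. The A53T values were 82.7 and 124 in DMSO, 500.2, 490.1 and 467 at 0.2 µM and 29.7, 35.0 and 30.8 at 2.0 µM. The libraries of A53T at 2.0 µM lay close together and below every other library, while those of vector at 0.2 µM spread by 2.83 times from lowest to highest. The fall at 2.0 µM was -0.91 ± 0.31, adjusted p = 0.0303 in vector and -1.64 ± 0.35, adjusted p = 0.00377 in A53T, and A53T was below vector at this dose (-1.08 ± 0.31, adjusted p = 0.0304). The A53T call was lost without the unnumbered DMSO library, and the vector call without replicate 1 or 3 in DMSO or replicate 2 or 3 at 2.0 µM.

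Cnksr2, a scaffold of Ras and Rac signalling, fell in every alternative at 2.0 µM in vector (-0.85 ± 0.17, adjusted p = 0.00103) and in A53T (-0.92 ± 0.18, adjusted p = 0.00275). Kalrn, an activator of Rac that shapes spines, fell in vector (-0.72 ± 0.28, adjusted p = 0.0468) and in A53T (-1.24 ± 0.31, adjusted p = 0.00865), of which the vector call was lost in 12 alternatives. Iqsec2, an activator of Arf proteins, fell in A53T (-0.85 ± 0.21, adjusted p = 0.00792) and was -0.27 ± 0.19 in vector without passing. Ppp1r9b, which encodes spinophilin, the spine anchor of protein phosphatase 1, was just past the threshold in A53T (-0.26 ± 0.10, adjusted p = 0.0493), with the call lost in 14 alternatives and turned to 0.19 with pan-neuronal scaling. In vector its value was 0.02 ± 0.09.

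The members split by how far libraries of one group lay apart. The residual SD on the log2 scale was 0.258 at the median of the members and 0.152 at the median of all genes, and 20 of 29 members were above the latter. The smallest were 0.053 for Camk2b and for Nrxn2, 0.071 for Dlgap1, 0.084 for Homer1 and 0.089 for Shank3. The largest were 0.622 for Camk2a, 0.610 for Camk2d, 0.545 for Dlg1, 0.533 for Nrxn3 and 0.520 for Nlgn1. Both ends of this range hold members of the same families. Camk2a differed 3.83 times between the lowest and highest library of A53T at 2.0 µM, against 1.15 times for Camk2b, and Nrxn3 differed 2.85 times against 1.09 for Nrxn2.

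**Figure D3:**
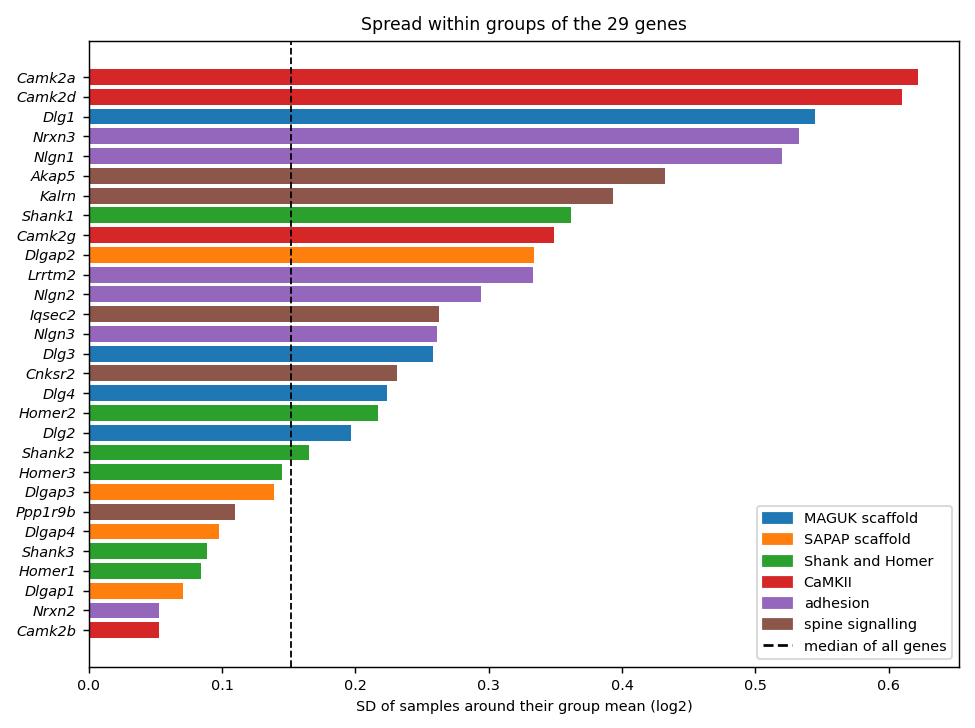
Residual SD (log2) of samples around their group mean for each of the 29 genes, as bars coloured by role and starting at 0, with a dashed line at the median of all genes, 0.152. The bars run from 0.053 for Camk2b and Nrxn2 to 0.622 for Camk2a, and 20 of 29 pass the dashed line.

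The leading axis of the libraries' deviations from their group means, computed from all genes except the members, held 54.1% of the within-group variance. Library scores on this axis, centred on vector in DMSO, were lowest for replicate 1 of A53T at 2.0 µM, at -2.41, followed by replicate 2 of vector at 2.0 µM, at -0.88. In vector at 0.2 µM replicate 1 scored -0.27 and the others 1.53 and 1.38, and the libraries of A53T at 0.2 µM scored 4.99 to 5.04. The outlying library was the lowest of its group for 26 of 29 members in vector at 0.2 µM, against 38.9% of all genes. The same held for 23 of 29 in vector at 2.0 µM, against 43% of all genes, and for 23 of 29 in A53T at 2.0 µM, against 41.6%. In all 3 groups at once this was so for 20 members, or 69%, and for 25.2% of all genes. Those 20 include Camk2a, Nrxn3, Akap5, Shank1 and Dlg4, whereas Dlgap1 and Dlgap4 were lowest there in none of the 3 groups. These counts describe libraries already known to lie apart. With the score as a covariate, 2 members were higher and 22 lower at 2.0 µM in vector, and 0 and 21 in A53T, where the share of all genes passing was 66.8% in vector, up from 47.2%, and 38.3% in A53T. The same covariate gave 3 higher and 12 lower at 0.2 µM in vector, and 1 higher and 13 lower for A53T in DMSO, where 33.2% and 34.1% of all genes passed.

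**Figure D4:**
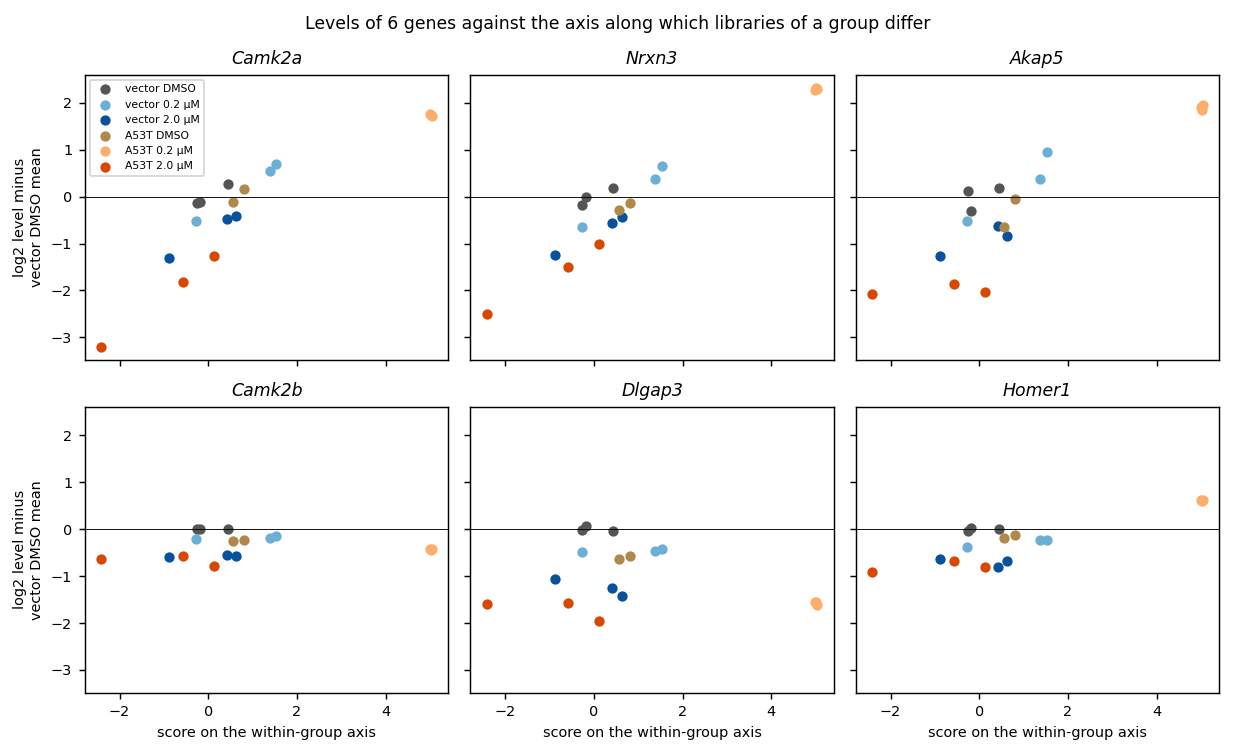
Log2 level minus the mean of vector in DMSO for 6 genes (panels) against the score on the within-group axis, 1 point per library coloured by group. Camk2a, Nrxn3 and Akap5 are lowest within their group in each of the 3 outlying libraries and highest in A53T at 0.2 µM, scored 4.99 to 5.04, whereas Camk2b and Dlgap3 spread little within groups and lie highest in vector with DMSO.

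Most members were higher in A53T cultures at 0.2 µM FK506 than in each of the 3 groups compared with them, but many of these directions did not hold with the axis score as a covariate. Against A53T in DMSO, 22 of 29 were higher and 2 lower, with a median of 1.20, where 67.8% of all genes passed, 33.6% higher and 34.2% lower, and the median was near 0. The libraries lay wholly above for 24 members and wholly below for 4, against 44.7% and 44.6% of all genes. Against vector at 0.2 µM, 22 were higher and 3 lower, where 68.9% of all genes passed, 33.8% higher and 35.1% lower, and no overlap was seen for 25 higher and 3 lower, against 42.5% and 42.9%. From 0.2 to 2.0 µM in A53T, 27 were lower and 1 higher, where 77.3% passed, 38.7% higher and 38.5% lower, and no overlap was seen for 27 lower and 1 higher, against 43.2% and 43.9%. The single sample here has no spread of its own, and the fit borrows that of the remaining groups.

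Among the rises against DMSO were those of Dlg2 (2.93 ± 0.22, adjusted p = 2.00e-06), at 3519, 3345 and 3435 normalized counts, and of Dlgap2 (2.70 ± 0.37, adjusted p = 8.84e-05). Homer2 (1.96 ± 0.29, adjusted p = 0.000131) and Dlgap1 (0.63 ± 0.09, adjusted p = 0.000143) were also higher. Dlgap3 was the clear exception, lower by 0.96 on the log2 scale (-0.96 ± 0.15, adjusted p = 0.000232), and Camk2b was at the threshold (-0.19 ± 0.08, adjusted p = 0.0498), turning to 0.12 with quantile normalization. Nrxn2 did not pass (0.08 ± 0.08), nor did Dlgap4 (-0.26 ± 0.12). With the axis score as a covariate, which extends the axis from a range of -2.41 to 1.53 out to about 5, 6 members were higher and 7 lower against DMSO, their median was -0.07, and 10 of the 24 called members changed sign. Against vector at 0.2 µM the covariate gave 6 higher and 8 lower, the median went from 0.92 to -0.20, and 12 of the 25 called members changed sign. Between 0.2 and 2.0 µM in A53T it gave 2 higher and 12 lower, the median went from -2.15 to -0.28, and 11 of the 28 called members changed sign. The shares of all genes passing under this covariate were 29.5%, 28.7% and 15.1%. Single genes were followed through the alternatives only for the 8 named in this paragraph, against DMSO, and 6 of these were called. Of the 6, Dlg2, Dlgap1, Dlgap2, Dlgap3 and Homer2 kept direction and call in all 29 alternatives that could be run. The remaining called members were not scored one by one, so these 5 are not the only stable ones among the 24.

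Of 72 other postsynaptic density gene names listed by function, with Citron and Preso1 as aliases of Cit and Frmpd4, 64 have a row. At 2.0 µM in vector 28 fell and 5 rose, with a median of -0.28, where 23.8% of all genes fell and 23.4% rose. In A53T 35 fell and 2 rose, with a median of -0.47, where 17.9% of all genes fell and 19.7% rose. Agap2, a GTPase-activating protein, fell in vector (-0.92 ± 0.06, adjusted p = 1.75e-07) and in A53T (-0.75 ± 0.07, adjusted p = 1.19e-05). Cacng8, an auxiliary subunit of AMPA receptors, fell in both (-1.36 ± 0.11, adjusted p = 7.88e-07, and -1.22 ± 0.12, adjusted p = 2.48e-05). Arc, which drives AMPA receptor uptake and is induced by activity, fell in A53T (-1.45 ± 0.19, adjusted p = 0.000202), and Baiap2, an adaptor of actin, fell there too (-0.62 ± 0.07, adjusted p = 6.51e-05). Mpp6, a MAGUK of another family, rose in vector (0.87 ± 0.08, adjusted p = 3.26e-06) and in A53T (0.84 ± 0.09, adjusted p = 5.38e-05). In DMSO, 9 of the 64 were lower in A53T than in vector and 0 higher, where 8.19% of all genes were lower and 5.85% higher and 14% passed. Among the 9 were Agap2 (-0.61 ± 0.07, adjusted p = 0.000132) and Begain, a binding partner of the Dlg proteins (-0.52 ± 0.07, adjusted p = 0.000736).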

How the data were processed

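Poly(A) RNA was measured in 17 libraries made with a stranded mRNA kit, per the labels' protocols. The submitters' processing notes name FastQC, TopHat, HTSeq and the rat build rn6; their versions, like the method of normalization, are not given in the sources used here. Expression was deposited by the authors as 1 table of normalized count values per gene, treated here as signal; between 44.2% and 100% of low values per library lay within 0.1 of a whole step, so whole reads were not recovered and raw depth, which sets the precision, is unknown. All value columns were mapped (0 left over); the second A53T column in DMSO carries another number than the sample's title and was used as a replicate without number. Row labels that look like dates (23) were used in the fit and not named.

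Values were analysed as log2(value + 1), with genes of mean under 1 removed, by limma 3.58.1 in R 4.3.3 (1 mean per group, trend, 15 samples because 3 near-identical libraries were averaged, Benjamini-Hochberg adjustment over 11247 genes); fold changes on this scale understate those of low genes. The code was tested on simulated data. The interaction is the difference of FK506 effects between genotypes. Alternatives covered the pseudocount, the filter, scaling, samples in the fit, replicate blocks, an axis covariate and leaving out libraries; leaving out all libraries of A53T at 0.2 µM was added after seeing the data. The members, gene lists and tests were chosen with earlier results of these data known. Values in every library are given for members past the threshold in the interaction, the 4 with the smallest adjusted p in each comparison without A53T at 0.2 µM, and Akap5, Homer1 and Dlg4; of other lists at most 5 genes per comparison are named. Camk2a, Dlg2 and Homer2 values were chosen after they were seen.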

Additional observations from a re-analysis of the deposited data

Results flagged for a closer look

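The response of Dlgap1, a SAPAP scaffold gene, to 2.0 µM FK506 differed between the genotypes by the interaction test. The change in A53T minus the change in vector was 0.58 on the log2 scale (SE 0.09, adjusted p = 0.00222), with an adjusted p between 4.21e-05 and 0.0574 over the alternatives. The highest of these came with scaling to the pan-neuronal markers. Of the 29 members' estimates in this test, 24 were below 0 and 5 above. Groups had 2 or 3 libraries, so no search for single deviating libraries was made by a test.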

How the results depend on the processing

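Of the counts of members past the threshold, those under other pseudocounts, without the filter on low values and without all libraries of A53T at 0.2 µM stayed within 1.5 times the reported ones. Fitting only the groups compared gave 12 for A53T in DMSO, 14 for 2.0 µM in A53T and 2 for A53T at 2.0 µM. In these fits 37.1%, 15.9% and 6.12% of all genes passed. Treating all 17 libraries as separate samples gave 5 for A53T in DMSO and 2 for the interaction, where 18.6% and 21% of all genes passed. The interaction count was also 2 with a minimum mean value of 50 and 2 with quantile normalization, where 16.2% and 15.1% passed. Pan-neuronal scaling gave 9 between the doses in vector, 15 for 2.0 µM in A53T and 5 for the interaction. In these fits 54.3%, 62.6% and 11.8% of all genes passed. The 9 were 4 higher and 5 lower, the 15 were 2 higher and 13 lower, and the 5 were all lower. Leaving out the 3 outlying libraries gave 13 for A53T in DMSO, 23 for 0.2 µM, 22 for 2.0 µM and 23 between the doses in vector, and 17 for the interaction. For the comparisons other than the interaction, 39%, 52.4%, 61.2% and 48% of all genes passed. The axis covariate gave 14 for A53T in DMSO, 15 for 0.2 µM and 24 for 2.0 µM in vector. There 34.1%, 33.2% and 66.8% of all genes passed. The covariate gave 5 for the interaction, for which the share of all genes is not given here. With A53T at 0.2 µM it gave 13 against DMSO, 14 against 2.0 µM and 14 against vector. The cause of these shifts was not tested.

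Leaving out 1 library at a time gave 2 to 7 members for 0.2 µM in vector, where 8.71% to 26.8% of all genes passed. It gave 8 to 13 for 2.0 µM in vector (40.2% to 52.8%) and 8 to 24 between those doses (23.7% to 41.8%). For A53T at 2.0 µM it gave 2 to 15 (10.6% to 26.3%). Among such fits that kept both libraries of A53T in DMSO, the range was 2 to 6 for A53T in DMSO (8.51% to 20.3%). It was 19 to 25 for 2.0 µM in A53T (29.9% to 43.4%), and fewer members passed with 1 library there. The interaction gave 1 to 6, and its shares of all genes are not given here. For A53T at 0.2 µM the ranges were 20 to 26 against DMSO, 27 to 28 against 2.0 µM and 19 to 27 against vector.

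By title numbers the unnumbered library belonged to no replicate block, and A53T in DMSO was left without a replicate. The members' median log2 fold change was then -0.72 for 2.0 µM in A53T and -0.40 for A53T at 2.0 µM. This fit cannot separate the effect of blocking from the loss of that library. The block by column numbers kept the library and gave 23 and 10 members past the threshold, where 34.8% and 17% of all genes passed. Correlations of same-numbered samples had a median of -0.108 over 22 pairs by title and -0.012 over 26 pairs by column, with 9 and 11 of them over 0.1, so the numbers were not taken to pair the samples. The counts for 2.0 µM in A53T and for A53T at 2.0 µM moved by over 1.5 times in the fit by title numbers. Neither block moved another count that far.

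Among the fold changes scored one by one, which for A53T at 0.2 µM are 8 genes against DMSO alone, 24 changed direction where either fit passed the threshold. Values that passed in neither also crossed 0, such as Dlg3 at 2.0 µM in vector. It did not pass in the main fit, ran from -0.43 to 0.22 over all fits, and passed below 0 in 2 alternatives. Over all members at 0.2 µM in A53T, the axis covariate turned 10 called values against DMSO, 11 against 2.0 µM and 12 against vector, pan-neuronal scaling turned 3 against 2.0 µM, and quantile normalization 1 against DMSO and 1 against 2.0 µM. With pan-neuronal scaling at 2.0 µM in vector, Dlg4 was 0.134, Shank2 0.363, Shank3 0.014, Homer3 0.367 and Nrxn2 0.122. Between the doses in vector Dlg2 was 0.368, Camk2b 0.002, Nrxn2 0.067 and Ppp1r9b 0.223. At 2.0 µM in A53T Dlg2 was 0.352, Dlgap1 0.078, Dlgap4 0.449, Camk2b 0.025 and Ppp1r9b 0.191. With the axis covariate Camk2a was -0.455 for A53T in DMSO, and at 0.2 µM in vector Dlg3 was -0.174, Dlg4 -0.218, Camk2a -0.371 and Nrxn3 -0.396. In the interaction Dlg4 was 0.196, Kalrn 0.229 and Cnksr2 0.343. Quantile normalization gave Camk2b 0.022 at 0.2 µM in vector and 0.121 in A53T. Depth cannot be used to bound any of these values.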

Other observations

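Of 55 other synaptic adhesion genes listed by function, 49 have a row. At 2.0 µM FK506 21 fell and 4 rose in vector, with a median log2 fold change of -0.34, and 30 fell and 1 rose in A53T, with a median of -0.58. Over all genes 23.8% fell and 23.4% rose in vector, and 17.9% fell and 19.7% rose in A53T. Lrrc4, a netrin-G ligand, fell in vector (-0.87 ± 0.07, adjusted p = 6.36e-07) and in A53T (-0.61 ± 0.07, adjusted p = 9.93e-05). Clstn1, a calsyntenin, also fell in both (-0.52 ± 0.05, adjusted p = 3.42e-06, and -0.48 ± 0.06, adjusted p = 8.07e-05). Adgrl3, a latrophilin, fell in A53T (-0.91 ± 0.14, adjusted p = 0.000597), and Tenm3, a teneurin, fell in vector (-0.96 ± 0.10, adjusted p = 9.40e-06). Mdga1, which binds neuroligins and blocks neurexins from them, was higher in A53T than in vector in DMSO (0.91 ± 0.13, adjusted p = 0.000817). Its response to 2.0 µM FK506 was lower in A53T than in vector (-0.84 ± 0.17, adjusted p = 0.00845), whereas that of Cbln2, a secreted partner of neurexins, was higher (0.68 ± 0.17, adjusted p = 0.0179), as was that of Lrfn3 (0.59 ± 0.14, adjusted p = 0.0165). These values are relative to all mRNA and were not recomputed with other scalings.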
